A study of Mus musculus with 6 samples.

Results

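The genes of the DNA replication machinery were examined in mouse CD4+ T cells cultured with the compound MAPK13-IN-1 or with its solvent DMSO. The 45 genes were a fixed list of symbols, matched in the gene-name column of the deposited tables, and all 45 were found among the 35602 genes of the count table. Mouse spleen was the source of the CD4+ T cells, and their stimulation, by antibodies to CD3 and CD28, lasted 72 h. MAPK13-IN-1 blocks the kinase encoded by *Mapk13*, a member of the p38 family, and was used at 17.1 µM for replicates 2 and 3. The sample labels of these replicates place its addition after day 1 of stimulation, whereas a figure legend of the study describes stimulation in its presence throughout, and for the replicate 1 pair the labels give neither dose nor day. Cells of replicates 2 and 3 are labelled as wild type (WT), all groups received the same stimulation, and the sources used here tie no strain or age to these cells. Each group had 3 libraries, in 2 preparations. Replicates 2 and 3 of both groups were deposited as 1 table of counts, with totals of 26874805 and 28487403 counts for DMSO and 33854760 and 32617702 counts for MAPK13-IN-1. Replicate 1 of each group was deposited in values read here as FPKM, that is, fragments per transcript length and sequencing depth. No label names that unit, which was inferred. The depth of this pair is unknown and it entered no test. The labels do not say that replicates came from separate cultures or animals, so that p-values measure only the spread between these libraries, which may be technical.

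Before a cell divides, each origin of replication is bound by the origin recognition complex, which loads the ring-shaped MCM helicase with the help of Cdc6 and Cdt1. In S phase, Cdc45 and the GINS complex turn MCM into an active helicase, primase starts each new strand, and polymerases held by the PCNA clamp extend it. Resting T cells express these components at a low level, and their genes are switched on, largely through E2F transcription factors, when a T cell is stimulated to proliferate.

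The labels were first checked against marker genes. Of 11 CD4 T cell markers, 8 were in the count table and each had at least 10 counts in every library. Their summed level, in CPM (counts scaled here to the library total), was 1847 and 1869 in DMSO replicates 2 and 3 and 1241 and 1358 in MAPK13-IN-1 replicates 2 and 3. Of these 8 genes 6 were called lower in the test described below. That test called 32.3% of all genes tested lower and 31.5% higher, which also bears on the marker counts that follow. *Cd4* itself and the kinase gene *Zap70* were not called, with log2 fold changes of −0.00064 and 0.11. *Cd4* was at 275 and 276 CPM with DMSO and 267 and 283 CPM with the inhibitor (scaled by TMM). Transcripts of B cells were also abundant. Of 12 B cell markers, 10 were in the table and all of these had at least 10 counts in every library, led by *Cd74*, the invariant chain of antigen presentation, and their sum was 2230 and 2145 CPM for DMSO and 3301 and 3189 CPM for MAPK13-IN-1. Summed markers of macrophages and dendritic cells (10 genes, led by *Cd68*) were at 14.1 and 12.6 CPM with DMSO and 47.6 and 39.5 CPM with the inhibitor, and those of erythroid cells (8 genes, led by the globin gene *Hbb-bs*) at 7.52 and 7.20 CPM against 94.4 and 67.1 CPM. For CD8 T and NK cells (7 genes) the sums were 33.5 and 34.6 CPM against 11.0 and 14.9 CPM, with *Ncr1* at 0 in both DMSO libraries. Of 5 tested genes 3 were called lower and 2 were not called. The fall was led by *Nkg7*, at 554 and 619 counts with DMSO and 104 and 141 with the inhibitor. *Klrd1*, not called, had 8 and 8 counts against 18 and 25. Neutrophil markers (7 genes) were at 0.521 and 0.351 CPM with DMSO and 0.857 and 1.20 CPM with the inhibitor. *S100a9* had 0 counts in all 4 libraries. Replicate 1 of each group had *Cd4* at 118 FPKM for DMSO and 146 FPKM for MAPK13-IN-1, and in this pair 4 of the 8 CD4 T cell genes were lower. The B cell sum rose there from 227 to 251 FPKM, through *Cd74* at 176 and 215 FPKM, while the other 9 of the 10 genes were lower. The macrophage and dendritic cell sum rose from 3.28 to 10.9 FPKM, as in the count table, with only *Cd68* at a mean of 1 FPKM or more. The erythroid sum rose from 0.931 to 1.94 FPKM, but 0 of its 8 genes reached that mean. Of these 8 genes 2 were lower, *Alas2* and *Klf1*. The CD8 T and NK cell sum rose from 17.3 to 124 FPKM, most of it *Nkg7* at 13.0 and 111 FPKM, unlike the count table. The marker sums of the count table therefore moved with the groups, and their part in the results below was not tested. In bulk RNA, fewer dividing cells and less RNA per cell cannot be told apart. *Mapk13* itself had 79 and 74 counts with DMSO and 21 and 51 counts with the inhibitor, and 0.191 and 3.28 FPKM in the replicate 1 pair, opposite directions in the 2 preparations.

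Replication genes were mostly expressed at a lower level in MAPK13-IN-1-treated cells. In the count table, 33 of the 45 genes were lower and 3 were higher with the inhibitor at an adjusted p-value under 0.05 in the quasi-likelihood test of edgeR with Benjamini-Hochberg adjustment over all genes, and 9 were not called. Among all 16269 genes tested, 32.3% were called lower and 31.5% higher, shares to be read beside the counts of each role class below. The median log2 fold change was −0.47 over the 45 genes and 0.01 over all genes tested. The values ran from −1.30 for *Rrm2*, a subunit of ribonucleotide reductase, to 0.59 for *Prim2*, a subunit of primase, and 39 of 45 lay below 0. Most of the falls were moderate. The 5 genes *Rrm2*, *Gins1*, *Cdc45*, *Mcm2* and *Pcna* were called lower with a log2 fold change below −1, as were 10.4% of all genes tested. The libraries of the groups did not overlap in 39 of the 45 genes (35 lower and 4 higher with the inhibitor), but this was common, as it held for 6730 genes lower and 6780 higher among the 16269 tested. Non-overlap given for single genes below is to be read against these 6730 and 6780 genes. All 45 genes passed the filter on low counts, and no gene had fewer than 112 counts in any library. Together they took 0.399% (95% Wilson interval 0.397% to 0.402%) and 0.393% (0.391% to 0.396%) of the counts in DMSO replicates 2 and 3, and 0.269% (0.267% to 0.270%) and 0.328% (0.326% to 0.330%) in MAPK13-IN-1 replicates 2 and 3. These intervals cover counting error only. When libraries were scaled by their totals instead of the TMM method, the median log2 fold change of all genes shifted upward by 0.125, with 4302 genes called lower and 6176 higher in place of 5252 and 5122. The median of the replication genes was then −0.35, and 29 of the 33 genes were still called lower.

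**Figure D1:**
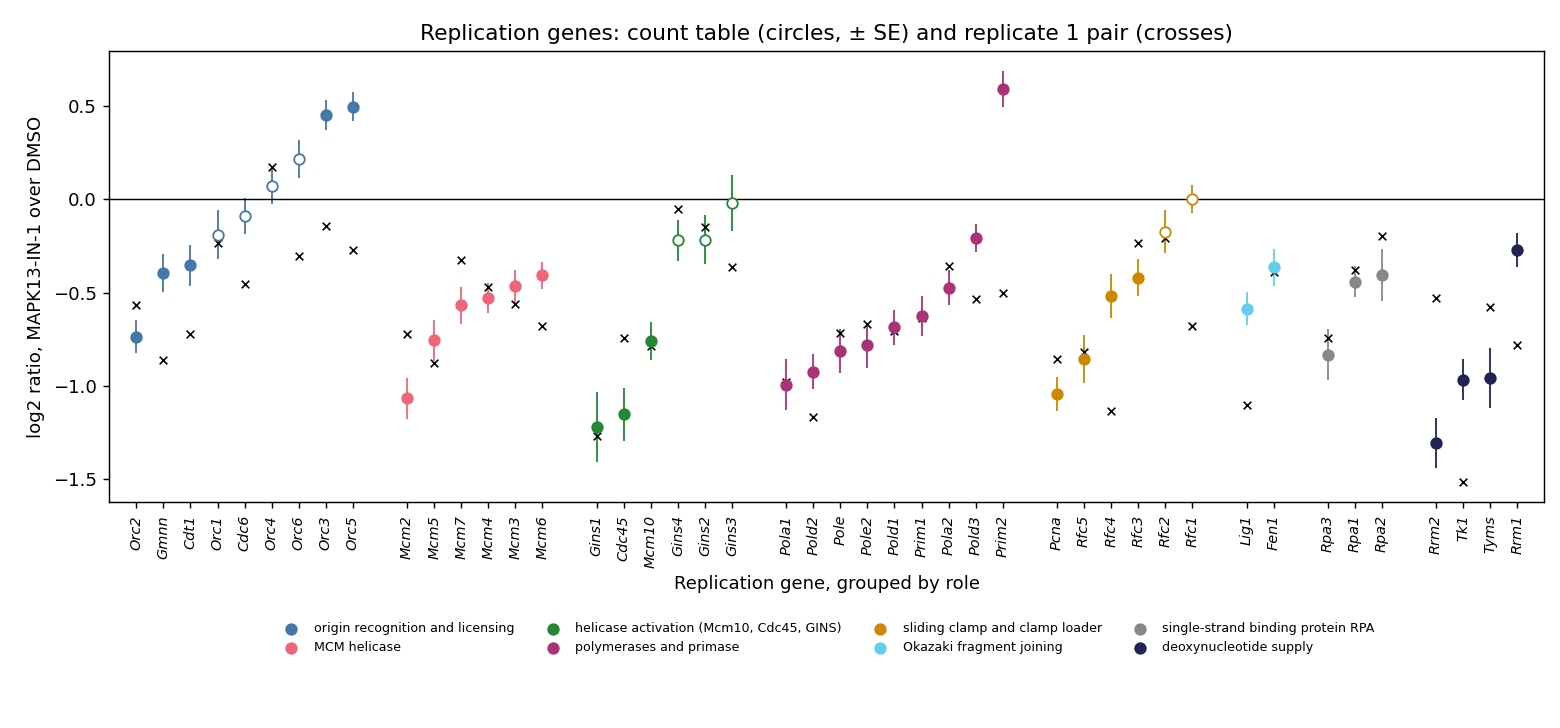
Log2 ratio of MAPK13-IN-1 over DMSO (y axis) for each of the 45 replication genes (x axis), grouped and coloured by role. Circles give the edgeR estimate from 2 libraries per group with its standard error, filled where the gene was called and open where it was not, and crosses give the log2(FPKM + 1) ratio of the replicate 1 pair. Most circles lie below 0, with *Orc3*, *Orc5* and *Prim2* as filled circles above it, and 44 of 45 crosses lie below 0.

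The genes of origin recognition and licensing were split. Of 9 genes, 3 were called lower, 2 were higher and 4 were not called, shares near those of all genes tested, with a median log2 fold change of −0.09. *Orc2*, a core subunit of the origin recognition complex, was at 36.0 and 34.1 CPM (scaled by TMM, as are all CPM from here on) in DMSO replicates 2 and 3 and at 21.6 and 20.5 CPM in MAPK13-IN-1 replicates 2 and 3. Its neighbour in the complex *Orc3* was at 59.9 and 62.2 CPM with DMSO and at 89.9 and 77.0 CPM with the inhibitor. *Orc5*, an ATP-binding subunit, was at 36.6 and 37.8 CPM with DMSO and at 53.5 and 51.4 CPM with the inhibitor. Both inhibitor libraries thus lay below both DMSO libraries for *Orc2* and above them for *Orc3* and *Orc5*, with no overlap between groups. For *Orc4*, another ATP-binding subunit, the groups overlapped, at 24.0 and 21.5 CPM with DMSO and 25.0 and 22.9 CPM with the inhibitor. In the quasi-likelihood test of edgeR with Benjamini-Hochberg adjustment, the log2 fold change was −0.74 ± 0.09 (SE) for *Orc2* (adjusted p = 4.24e-05), 0.45 ± 0.08 for *Orc3* (adjusted p = 0.000723), 0.50 ± 0.08 for *Orc5* (adjusted p = 0.000211) and 0.07 ± 0.10 for *Orc4* (adjusted p = 0.546). Subunits of the same complex therefore stood on opposite sides of 0 in the count table, although the difference between them was not itself tested. In the replicate 1 pair *Orc2*, *Orc3* and *Orc5* were all lower, with log2 ratios of −0.57, −0.14 and −0.27. Of the exon bases of *Orc2*, 29.8% overlap the opposite-strand gene *Nif3l1*. Of the loading factors, *Cdt1*, which brings the MCM ring to the origin, and its inhibitor *Gmnn* (geminin) were called lower, at −0.35 and −0.39. *Cdt1* was at −0.17 without MAPK13-IN-1 replicate 2 and at −0.57 without MAPK13-IN-1 replicate 3. With library totals it was at −0.23 and not called. *Cdc6*, the ATPase that loads MCM together with Cdt1, had a log2 fold change of −0.09 (adjusted p = 0.428, the quasi-likelihood test of edgeR with Benjamini-Hochberg adjustment) and the subunits *Orc1* and *Orc6* were at −0.19 and 0.21, none of them called. Without MAPK13-IN-1 replicate 3, *Orc1* and *Cdc6* were called lower at −0.37 and −0.24, and *Orc6* was at 0.06. Without MAPK13-IN-1 replicate 2, *Orc1* and *Cdc6* were at −0.03 and 0.04, not called, and *Orc6* was called higher at 0.35, as it was with upper-quartile scaling, library totals, at least 10 counts required in every library, and a replicate block.

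All 6 genes of the MCM helicase, whose products form the hexameric ring that unwinds DNA at the fork, were lower with MAPK13-IN-1. *Mcm2*, a regulatory subunit of the ring that also binds histones, was at 146 and 149 CPM in DMSO replicates 2 and 3 and at 60.1 and 80.6 CPM in MAPK13-IN-1 replicates 2 and 3. *Mcm5*, its neighbour in the ring, was at 246 and 247 CPM with DMSO and at 124 and 168 CPM with the inhibitor. *Mcm7*, a subunit of the catalytic core, was at 247 and 243 CPM with DMSO and at 144 and 186 CPM with the inhibitor. The DMSO libraries of these genes lay close to each other, and both inhibitor libraries lay below them without overlap, replicate 2 lower than replicate 3. The smallest change in the ring was that of *Mcm6*, at 255 and 253 CPM with DMSO and 177 and 206 CPM with the inhibitor, also without overlap. The log2 fold changes in the quasi-likelihood test of edgeR with Benjamini-Hochberg adjustment were −1.07 ± 0.11 (SE) for *Mcm2* (adjusted p = 1.38e-05), −0.76 ± 0.11 for *Mcm5* (adjusted p = 0.000147), −0.57 ± 0.10 for *Mcm7* (adjusted p = 0.000468) and −0.41 ± 0.07 for *Mcm6* (adjusted p = 0.000555). The remaining subunits *Mcm4* and *Mcm3* were at −0.53 and −0.47. The log2 ratios of *Mcm2* and *Mcm6* in the replicate 1 pair were close to each other, at −0.72 and −0.68, and *Mcm7* had the smallest fall, at −0.33.

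Among the genes that activate the helicase, 3 of 6 were called lower and 3 were not called, against 32.3% of all genes called lower. *Cdc45*, which binds MCM to form the active helicase, was at 78.1 and 78.7 CPM in DMSO replicates 2 and 3 and at 28.4 and 42.2 CPM in MAPK13-IN-1 replicates 2 and 3. *Gins1*, a GINS subunit, was at 9.50 and 8.35 CPM with DMSO and at 3.16 and 4.52 CPM with the inhibitor, the lowest count of any replication gene being its 112 counts in MAPK13-IN-1 replicate 2. *Mcm10*, a factor required to activate the loaded helicase, was at 52.9 and 55.6 CPM with DMSO and at 28.7 and 35.4 CPM with the inhibitor. For all 3 genes the inhibitor libraries lay well below the DMSO libraries. The other GINS genes were not called, and *Gins3*, at 9.89 and 9.05 CPM with DMSO and 8.23 and 10.4 CPM with the inhibitor, had its lowest and its highest value within the inhibitor group. By the quasi-likelihood test of edgeR with Benjamini-Hochberg adjustment, the log2 fold change was −1.22 ± 0.19 (SE) for *Gins1* (adjusted p = 0.000251), −1.15 ± 0.14 for *Cdc45* (adjusted p = 4.84e-05), −0.76 ± 0.10 for *Mcm10* (adjusted p = 8.14e-05) and −0.02 ± 0.15 for *Gins3* (adjusted p = 0.913). *Gins2* and *Gins4* had log2 fold changes of −0.22 and −0.22, and 67.3% of the exon bases of *Gins2* overlap the opposite-strand gene *Gse1*. Without MAPK13-IN-1 replicate 3 they were called lower, at −0.42 and −0.36, and without MAPK13-IN-1 replicate 2 they were at −0.04 and −0.10, not called.

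The polymerase and primase genes gave 8 of 9 genes called lower and 1 higher, around a median log2 fold change of −0.69. *Pola1*, the catalytic subunit of polymerase alpha, which extends the primer first, was at 57.2 and 54.6 CPM in DMSO replicates 2 and 3 and at 23.0 and 33.1 CPM in MAPK13-IN-1 replicates 2 and 3. *Pold2*, an accessory subunit of the lagging-strand polymerase delta, was at 46.7 and 50.6 CPM with DMSO and at 23.8 and 27.4 CPM with the inhibitor. *Pole*, the catalytic subunit of the leading-strand polymerase epsilon, was at 121 and 118 CPM with DMSO and at 57.2 and 78.8 CPM with the inhibitor. In each case both inhibitor libraries were low, and the groups did not overlap. *Pold3*, another accessory subunit of polymerase delta, differed least, at 74.5 and 68.4 CPM with DMSO and 58.9 and 64.7 CPM with the inhibitor, close together but without overlap. The log2 fold changes, from the quasi-likelihood test of edgeR with Benjamini-Hochberg adjustment, were −0.99 ± 0.14 (SE) for *Pola1* (adjusted p = 0.000107), −0.92 ± 0.09 for *Pold2* (adjusted p = 1.23e-05), −0.81 ± 0.12 for *Pole* (adjusted p = 0.000154) and −0.21 ± 0.08 for *Pold3* (adjusted p = 0.0338). The call of *Pold3* was lost without DMSO replicate 2 (−0.16) and without MAPK13-IN-1 replicate 2 (−0.14). *Pole2*, *Pold1* and *Pola2*, which encode an accessory subunit of polymerase epsilon, the catalytic subunit of polymerase delta and an accessory subunit of polymerase alpha, were at −0.78, −0.69 and −0.47.

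The primase subunits moved in opposite directions. Primase makes the RNA primers, with the catalytic site in the product of *Prim1* and the regulatory large subunit encoded by *Prim2*, and both genes were chosen for full values after these were seen. *Prim1* was at 43.6 and 44.1 CPM in DMSO replicates 2 and 3 and at 25.2 and 31.7 CPM in MAPK13-IN-1 replicates 2 and 3. *Prim2* was at 36.4 and 30.9 CPM with DMSO and at 48.1 and 52.9 CPM with the inhibitor. All inhibitor values were below the DMSO values for the former and above them for the latter. By the quasi-likelihood test of edgeR with Benjamini-Hochberg adjustment, *Prim1* had a log2 fold change of −0.63 ± 0.11 (SE) (adjusted p = 0.00047) and *Prim2* one of 0.59 ± 0.10 (adjusted p = 0.000354). In the replicate 1 pair, in contrast, both were lower with the inhibitor, *Prim1* at 57.4 and 36.6 FPKM and *Prim2* at 20.0 and 13.8 FPKM for DMSO and MAPK13-IN-1.

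*Pcna*, which encodes the sliding clamp that tethers polymerases to DNA, had the highest level per transcript length of the 45 genes in the replicate 1 pair, 380 FPKM for DMSO and 209 FPKM for MAPK13-IN-1. In the count table it was at 369 and 351 CPM in DMSO replicates 2 and 3 and at 154 and 196 CPM in MAPK13-IN-1 replicates 2 and 3. The clamp is opened and closed around DNA by replication factor C, of which *Rfc5* encodes a small subunit, at 58.0 and 60.7 CPM with DMSO and 27.5 and 38.1 CPM with the inhibitor. *Rfc4*, another small subunit, was at 32.5 and 30.9 CPM with DMSO and at 19.3 and 24.9 CPM with the inhibitor. For these 3 genes every inhibitor library was below every DMSO library of the count table. The large subunit *Rfc1* was at 108 and 108 CPM with DMSO and 100 and 116 CPM with the inhibitor, so that the inhibitor libraries stood on either side of the DMSO libraries. In the quasi-likelihood test of edgeR with Benjamini-Hochberg adjustment, the log2 fold change was −1.04 ± 0.09 (SE) for *Pcna* (adjusted p = 5.1e-06), −0.86 ± 0.13 for *Rfc5* (adjusted p = 0.000175), −0.52 ± 0.12 for *Rfc4* (adjusted p = 0.00314) and 0.0011 ± 0.07 for *Rfc1* (adjusted p = 0.991). The value of *Rfc4* was −0.35 without MAPK13-IN-1 replicate 2. Of the other small subunits, *Rfc3* was called lower at −0.42, whereas *Rfc2* was at −0.17 and not called. *Rfc2* was called lower at −0.19 with a replicate block. It was at −0.41 without MAPK13-IN-1 replicate 3 and at 0.02 without MAPK13-IN-1 replicate 2. The clamp and its loader thus gave 4 genes lower, 0 higher and 2 not called. Of all genes tested, 32.3% were called lower. *Rfc1* was lower in the replicate 1 pair, at 24.9 FPKM for DMSO and 15.1 FPKM for MAPK13-IN-1, a log2 ratio of −0.68 beside −0.82 for *Rfc5*.

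On the lagging strand, *Fen1* encodes the nuclease that trims the flap of each Okazaki fragment and *Lig1* the ligase that joins the fragments. *Lig1* was at 175 and 174 CPM in DMSO replicates 2 and 3 and at 104 and 128 CPM in MAPK13-IN-1 replicates 2 and 3. *Fen1* was at 92.8 and 90.6 CPM with DMSO and at 62.5 and 79.9 CPM with the inhibitor. Both genes were low in both inhibitor libraries, with no overlap between groups. In the GENCODE vM21 annotation 84.2% of the exon bases of *Fen1* overlap genes on the opposite strand, so that its counts may include reads of these. With edgeR's quasi-likelihood test and Benjamini-Hochberg adjustment, the log2 fold change was −0.59 ± 0.09 (SE) for *Lig1* (adjusted p = 0.000197) and −0.37 ± 0.10 for *Fen1* (adjusted p = 0.00849). *Fen1* was at −0.20 without MAPK13-IN-1 replicate 2 and at −0.56 without MAPK13-IN-1 replicate 3.

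The 3 genes of replication protein A, the trimer that coats unwound single strands, were all called lower. *Rpa3*, the smallest subunit, was at 18.3 and 18.2 CPM in DMSO replicates 2 and 3 and at 8.90 and 11.6 CPM in MAPK13-IN-1 replicates 2 and 3. *Rpa1*, the large DNA-binding subunit, was at 170 and 159 CPM with DMSO and at 110 and 132 CPM with the inhibitor. *Rpa2*, the subunit phosphorylated during replication stress, was at 47.6 and 44.7 CPM with DMSO and at 28.7 and 41.0 CPM with the inhibitor. No inhibitor library reached a DMSO library for any of the 3 genes, although MAPK13-IN-1 replicate 3 came near it for *Rpa2*. The log2 fold changes were −0.83 ± 0.14 (SE) for *Rpa3* (adjusted p = 0.000338), −0.44 ± 0.08 for *Rpa1* (adjusted p = 0.000834) and −0.41 ± 0.14 for *Rpa2* (adjusted p = 0.0237) in the quasi-likelihood test of edgeR with Benjamini-Hochberg adjustment. *Rpa2* was at −0.17 without MAPK13-IN-1 replicate 2 and at −0.69 without MAPK13-IN-1 replicate 3, and its call was lost when libraries were scaled by their totals, as were those of *Cdt1*, *Pold3* and *Rrm1*.

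Genes of deoxynucleotide supply had the lowest median of the 8 role classes, −0.96, and all 4 were called lower. *Rrm2*, the small subunit of ribonucleotide reductase, whose level limits the enzyme in dividing cells, was at 166 and 164 CPM in DMSO replicates 2 and 3 and at 54.3 and 79.6 CPM in MAPK13-IN-1 replicates 2 and 3. Its partner *Rrm1*, the large subunit, was at 211 and 213 CPM with DMSO and at 155 and 195 CPM with the inhibitor. Every inhibitor library was below the DMSO libraries for both subunits, by a wide margin for *Rrm2* and a narrow one for *Rrm1*. *Tyms*, which encodes thymidylate synthase, was at 53.9 and 56.6 CPM with DMSO and at 22.2 and 34.8 CPM with the inhibitor. *Tk1*, the thymidine kinase of the salvage pathway, was at 48.9 and 57.6 CPM with DMSO and at 24.7 and 29.8 CPM with the inhibitor. Neither gene had overlapping groups. The log2 fold change in the quasi-likelihood test of edgeR with Benjamini-Hochberg adjustment was −1.30 ± 0.13 (SE) for *Rrm2* (adjusted p = 1.37e-05), −0.97 ± 0.11 for *Tk1* (adjusted p = 2.8e-05), −0.96 ± 0.16 for *Tyms* (adjusted p = 0.000406) and −0.27 ± 0.09 for *Rrm1* (adjusted p = 0.0218). The order of the subunits was reversed in the replicate 1 pair, with *Rrm1* at 86.3 and 49.9 FPKM (log2 ratio −0.78) and *Rrm2* at 126 and 86.7 FPKM (log2 ratio −0.53). In the count table, *Rrm1* was at −0.12 without MAPK13-IN-1 replicate 2 and at −0.46 without MAPK13-IN-1 replicate 3. Its call was lost with upper-quartile scaling (−0.19) and with library totals (−0.15).

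The inhibitor libraries differed from each other in the replication genes and in some lists related to them. MAPK13-IN-1 replicate 3 was above MAPK13-IN-1 replicate 2 in 41 of the 45 genes, against 51.3% of all genes tested, and the 4 exceptions were the origin recognition genes *Orc2*, *Orc3*, *Orc4* and *Orc5*. The median log2 ratio of inhibitor replicate 3 over replicate 2 was 0.33 over the 45 genes and 0.01 over all genes tested. Replicate 3 was also the higher library in 21 of 21 mitosis genes (median log2 ratio 0.39), in 17 of 19 E2F and pocket protein genes (0.28) and in 31 of 36 other replication fork genes (0.19), so the gap was not particular to the replication genes. It was weaker in the replication checkpoint genes, 14 of 19 (0.11), and absent in the other deoxynucleotide genes, 4 of 13 (−0.03). DMSO replicate 3 was above DMSO replicate 2 in 20 of 45, with a median log2 ratio of −0.01. The gap between the inhibitor libraries was widest in *Tyms*, with a log2 ratio of 0.65, followed by *Cdc45* at 0.57 and *Rrm2* at 0.55. The median log2 fold change of the 45 genes was −0.34 without MAPK13-IN-1 replicate 2 and −0.67 without MAPK13-IN-1 replicate 3. Marker genes also differed between these libraries. MAPK13-IN-1 replicate 3 was above replicate 2 in 8 of 8 CD4 T cell markers (median log2 ratio 0.17), in 5 of 5 tested markers of CD8 T and NK cells (0.51), in 4 of 10 B cell markers (−0.04), in 2 of 7 tested erythroid markers (−0.43) and in 0 of 8 tested markers of macrophages and dendritic cells (−0.19). Whether these bear on the gap was not tested.

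**Figure D2:**
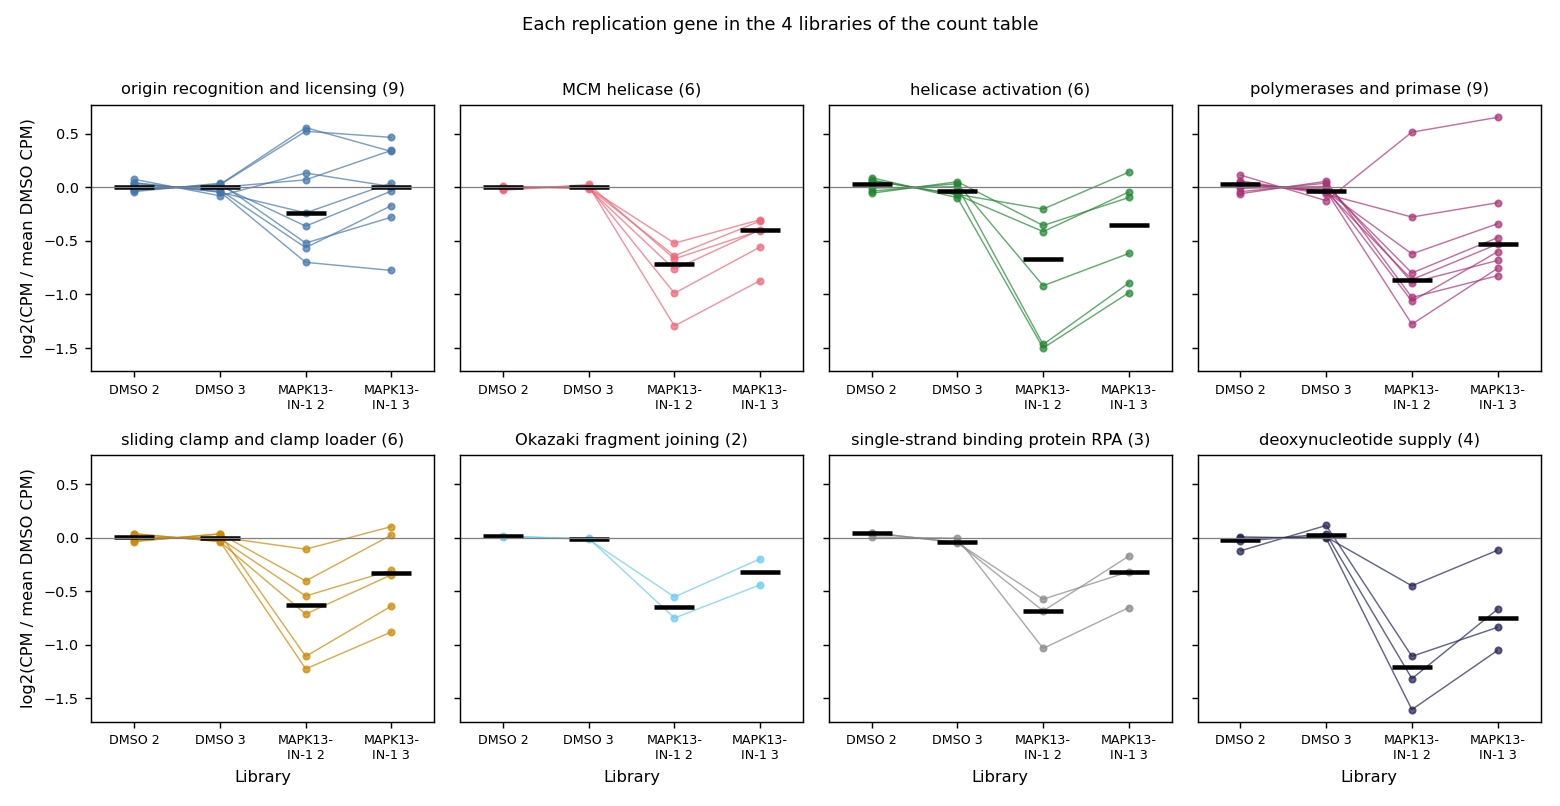
Level of each replication gene in each library of the count table (x axis), as log2 of its CPM over the mean CPM of the DMSO libraries (y axis), with 1 panel per role class and the number of genes in parentheses. Thin lines join the points of 1 gene and black bars mark the median of the class. The DMSO points lie close to 0, and in 41 of 45 genes the point of MAPK13-IN-1 replicate 3 lies above that of MAPK13-IN-1 replicate 2.

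The replicate 1 pair, prepared separately with a stranded kit, gave 1 library per group and therefore values with no replicate check. With the inhibitor, 44 of the 45 genes were lower, against 44.4% of the 11071 genes with a mean of at least 1 FPKM. By more than 0.5 on the log2(FPKM + 1) scale, which understates the change of genes with low values, 28 of 45 were lower, against 10.0% of those genes. The median log2 ratio was −0.58 for the replication genes and 0.07 for all genes at this level. *Tk1* differed most, at 77.4 FPKM for DMSO and 26.5 FPKM for MAPK13-IN-1, followed by *Gins1* at 21.6 and 8.39 FPKM and *Pold2* at 39.8 and 17.2 FPKM. *Rrm2*, with the largest fall in the count table, was at 126 and 86.7 FPKM. *Orc4* alone was higher, at 7.82 and 8.95 FPKM. The 33 genes called lower in the count table were all lower in this pair, and so were the 3 called higher there, with *Orc3* at 10.9 and 9.77 FPKM and *Orc5* at 15.8 and 12.9 FPKM. Across the 45 genes, Spearman's rho between the log2 fold change of the count table and the log2 ratio of this pair was 0.66, given as a description because genes are not independent replicates. Levels per transcript length can be compared between genes on the FPKM scale. With DMSO, *Pcna*, *Rrm2* and *Mcm5* were highest, at 380, 126 and 105 FPKM, and *Gins3*, *Orc4* and *Orc1* were lowest, at 5.96, 7.82 and 9.01 FPKM. The 6 MCM genes lay between 66.3 FPKM (*Mcm2*) and 105 FPKM (*Mcm5*).

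Since many of these genes moved together, the region around their transcription start was searched for short motifs in RefSeq sequence (GRCm38.p6, 250 bases before to 50 bases after each start), available for 37 of the 45 genes. E2F-type motifs, to which E2F factors are known to bind, were taken as TTTCCCGC, TTTCGCGC, TTTGCCGC or TTTGGCGC on either strand, where matches on opposite strands may overlap. They were found in 15 of the 37 genes (40.5%), against 2.60% of all 27025 genes with such a window. The share was 31.0% (9 of 29) in other replication fork genes and 5.56% (1 of 18) in mitosis genes. The match was present in 11 of 29 genes called lower, in *Orc3* as 1 of 2 genes called higher and in 3 of 6 genes not called (*Cdc6*, *Orc1* and *Gins3*). The CCAAT motif on either strand was in 62.2% of the replication genes and 41.1% of all genes, and the TTTGAA motif, the core of the CHR element of mitotic promoters, in 13.5% and 20.2%. A match describes the letters of a window and is not evidence of binding. Below are 40 bases, on the gene's strand, around the match of *Mcm5* (chr8:75109340-75109379, plus strand), *Mcm6* (chr1:128359792-128359831, minus strand) and *Pola1* (chrX:93632270-93632309, minus strand), which were called lower, and of *Cdc6* (chr11:98907997-98908036, plus strand), which was not. None of the 4 stretches overlaps an exon of the GENCODE vM21 annotation, and those of *Pola1* and *Cdc6* lie within the span RefSeq gives for the gene. They begin their match 153, 110, 138 and 138 bases before the start, and capitals mark the E2F-type letters, which in *Mcm5* and *Mcm6* are 2 overlapping matches on opposite strands.
Mcm5: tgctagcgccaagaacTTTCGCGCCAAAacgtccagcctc
Mcm6: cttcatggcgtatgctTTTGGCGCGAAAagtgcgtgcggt
Pola1: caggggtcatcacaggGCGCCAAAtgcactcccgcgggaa
Cdc6: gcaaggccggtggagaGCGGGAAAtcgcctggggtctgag

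Genes that work beside the 45 were counted in fixed lists, to be read against the 32.3% of all genes called lower and the 31.5% called higher. Of 36 other replication fork genes, 26 were called lower and 5 higher, with a median log2 fold change of −0.56. *Recql4*, a helicase needed to start forks, was at 39.6 and 45.6 CPM in DMSO replicates 2 and 3 and at 9.02 and 11.3 CPM in MAPK13-IN-1 replicates 2 and 3, with no overlap. Its log2 fold change was −2.07 ± 0.12 (SE, adjusted p = 3.72e-07, the quasi-likelihood test of edgeR with Benjamini-Hochberg adjustment). *Rnaseh2c*, a subunit of the nuclease that removes RNA from DNA, was at −1.32. *Mcmdc2*, an MCM-related gene of meiosis, was higher at 3.57 (95% confidence interval 2.59 to 4.55) on 3 and 4 counts with DMSO and 60 and 52 counts with the inhibitor, but stood at 1.48 and 1.17 FPKM in the replicate 1 pair. The kinase that fires MCM-loaded origins was split like primase, with its activator *Dbf4* called lower at −0.62 ± 0.09 (SE) and its catalytic subunit *Cdc7* called higher at 0.51 ± 0.09. In the replicate 1 pair both were lower, *Dbf4* at 31.7 and 20.3 FPKM and *Cdc7* at 14.7 and 10.4 FPKM. Of 13 other deoxynucleotide genes, 5 were lower, a share near that of all genes, and 1 was higher, with a median of −0.27. Among them, the nucleoside diphosphate kinase *Nme1* was at −1.15, the thymidylate kinase *Dtymk* at −0.77 and *Rrm2b*, the alternative small subunit of ribonucleotide reductase, at −0.69.

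Of 19 E2F and pocket protein genes, 9 were lower and 2 higher, with a median of −0.25. *E2f1*, an activator of replication genes, was at 60.4 and 56.4 CPM in DMSO replicates 2 and 3 and at 27.1 and 38.2 CPM in MAPK13-IN-1 replicates 2 and 3, so the groups did not overlap. It had a log2 fold change of −0.84 ± 0.13 (SE, adjusted p = 0.000265, the quasi-likelihood test of edgeR with Benjamini-Hochberg adjustment). The repressors *E2f4* and *E2f8* were at −1.18 and −1.04 and the G2 and mitosis factor *Foxm1* at −1.54. Of 21 mitosis genes, 16 were lower and 1 higher, with a median of −0.56, close to that of the replication genes. They were led by the kinetochore gene *Spc24* at −1.49, the cyclin gene *Ccnb1* at −1.18 and *Cdc20*, an activator of the anaphase-promoting complex, at −1.08. The proliferation marker *Mki67* was not called, at 417 and 417 CPM with DMSO and 303 and 445 CPM with the inhibitor, where the inhibitor libraries stood on both sides of the DMSO libraries. It had a log2 fold change of −0.16 ± 0.13 (SE), and was called lower at −0.47 without MAPK13-IN-1 replicate 3, higher at 0.095 without MAPK13-IN-1 replicate 2 and lower at −0.18 with a replicate block in the model. Its values in the replicate 1 pair were lower with the inhibitor, 71.7 and 37.5 FPKM. Of 19 replication checkpoint genes, 6 were lower and 5 higher, shares near those of all genes, with a median of −0.09. The partner of the ATR kinase *Atrip* was at −1.59, the stress gene *Gadd45a* at −1.14 and the ATR activator *Etaa1* at 1.08. *Cdkn1a*, the CDK inhibitor p21, was at 679 and 653 CPM with DMSO and 541 and 642 CPM with the inhibitor, and its log2 fold change of −0.17 ± 0.07 (SE) was not called (adjusted p = 0.0602, the quasi-likelihood test of edgeR with Benjamini-Hochberg adjustment). It was called lower without DMSO replicate 3 at −0.21, without MAPK13-IN-1 replicate 3 at −0.31, with a replicate block at −0.18 and with no filter on low counts at −0.17, but was at −0.05 without MAPK13-IN-1 replicate 2 and at −0.05 with library totals, not called in either.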

How the data were processed

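RNA of replicates 2 and 3 was captured with poly-T beads, and replicate 1 was prepared with a stranded mRNA kit. Per the labels, the authors aligned reads to mm10 with HISAT2 (2.1.0 for replicates 2 and 3) and, for replicates 2 and 3, used fastp 0.21.0, StringTie 2.1.5 and DESeq2 1.30.1. Counts per gene were deposited for replicates 2 and 3, as whole numbers. For replicate 1 the authors deposited values read here as FPKM, a unit inferred from the values, which sum to 405150 and 390729.

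Tests on the counts used edgeR 4.0.16 in R 4.3.3, with filterByExpr (at least 10 counts, and 15 in total), TMM and the two-sided quasi-likelihood test, 2 libraries against 2, with Benjamini-Hochberg adjustment over 16269 genes. The replicate libraries differed by more than sampling noise (mean chi-square per gene 2.94 for DMSO and 8.82 for MAPK13-IN-1). FPKM ratios used a pseudocount of 1. Whether the count table was counted by strand is not given in the sources used here. In GENCODE vM21, 7 of the 45 genes share over 10% of their exon bases with a gene on the other strand, the most being 84.2% for *Fen1* and 67.3% for *Gins2*, and reads of such partners cannot be told apart without strand. Pseudogene copies exist for *Pcna* and *Tyms*, so that their counts are uncertain to that extent.

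Values in every library were given for the 3 genes of each role class with the largest absolute log2 fold change and for the smallest, and for *Prim1* and *Prim2*. Of each other list, at most 3 called genes with the largest change were named, with *E2f1*, *Cdkn1a*, *Mki67*, *Dbf4*, *Cdc7* and *Mapk13*, and 1 more gene of that rule is not reported here. The members and lists were chosen with earlier results of these data known. The alternatives were other scalings and filters, a replicate block, DESeq2 1.42.0, each library left out, other thresholds and, for FPKM, a pseudocount of 0.1 or at least 1 FPKM in both libraries.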

Additional observations from a re-analysis of the deposited data

How the results depend on the processing

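The threshold moved the counts most. With an absolute log2 fold change over 1 required as well, 5 replication genes were called (5 lower and 0 higher), against 3799 of all genes (1686 lower and 2113 higher). The median log2 fold change of the 45 genes ranged from −0.67 to −0.34 when each library was left out in turn, where a lone library is assumed to vary like the other group. The cause of this range was not tested. Under the replicate block, 38 replication genes were called (34 lower and 4 higher), with *Orc6* and *Rfc2* added, and 10645 of all genes. Same-numbered libraries did not deviate together (correlation −0.0064 across genes), so the numbers were not taken to pair the samples. With each library left out, *Mki67* ranged from −0.47 to 0.095, the latter without MAPK13-IN-1 replicate 2 (adjusted p = 0.0459, the quasi-likelihood test of edgeR with Benjamini-Hochberg adjustment). At an adjusted p-value under 0.05, the call of *Pold3* was lost in 6 settings of scaling, filter, test or left-out library. It was also lost under the stricter thresholds. With library totals, 29 replication genes were called lower and 4 higher, with *Orc6* added. The 3 genes called higher kept that call in every scaling, filter, test and left-out library tried. With 2 libraries per group, a gene that was not called may still differ. Whether the B cell, erythroid and macrophage transcripts bear on any call was not tested.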

Other observations

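*Cdkn1a*, the gene of the CDK inhibitor p21, differed between the preparations. In the replicate 1 pair it had 117 FPKM for DMSO and 358 FPKM for MAPK13-IN-1, whereas in the count table its log2 fold change was −0.17 and not called. The replicate 1 pair has no replicate check and the difference between the preparations was not tested.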
